A study of Mus musculus with 6 samples.

Results

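The genes of the mitochondrial respiratory chain and of ATP synthase were followed across the cell types of the mouse liver in control livers and in the pre-metastatic and macro-metastatic livers of a colorectal cancer model. Members were chosen by symbol. The patterns took the nuclear genes named Nduf, Sdh, Uqcr, Cox4 to Cox8 and Atp5, and the mitochondrial genes named mt-Nd, mt-Co, mt-Cytb and mt-Atp. They matched 98 of 31253 features, 85 in the nuclear and 13 in the mitochondrial genome. By complex, the nuclear set held 36 genes of complex I, 4 of complex II, 8 of complex III, 19 of complex IV and 18 of complex V, and the mitochondrial set held 7, 0, 1, 3 and 2. The symbols also brought in a pseudogene (Cox5b-ps), a second Atp5o entry, and Cox7a2l, which helps to join complexes into supercomplexes rather than forming part of the core enzyme. Ndufa4 was counted with complex I by its symbol, although its protein is now placed in complex IV.

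The respiratory chain passes electrons from NADH (complex I) and succinate (complex II) through complexes III and IV to oxygen and pumps protons across the inner mitochondrial membrane, and complex V uses that gradient to make ATP. Complexes I, III, IV and V are built from subunits of both genomes, whereas every subunit of complex II is nuclear. The nuclear subunits are made in the cytosol and imported, and the mitochondrial ones are made inside the organelle from transcripts of its own DNA. In the liver, hepatocytes are rich in mitochondria, and neutrophils, which live mainly from glycolysis, hold few.

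The data are counts of unique molecular identifiers (UMIs, tags that count each captured transcript) from single liver cells on the BD Rhapsody system, in 2 libraries for each of the 3 groups. Controls carry the genotype label ctrl, and both other groups carry that of orthotopic colorectal cancer models. CT26-GFP, a mouse colon carcinoma line with a green fluorescent protein, is given as the cell line for all 6 libraries, controls included. The labels used here give neither strain, age nor the number of animals in a library, nor whether the replicates came from separate mice. The p-values therefore cover only the spread among these libraries, which could be technical.

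The 71908 barcodes each held at least 500 UMIs. Library totals ran from 41914149 to 51750676 UMIs in control and pre-metastatic libraries and were 88986627 and 90819751 in macro-metastatic libraries, which were therefore the deepest. After filtering, 65555 cells remained, of which 59019 passed the gate of their cell type, meaning that they lay in a cluster named from markers and held at least 2 markers of that type. Members and all other mitochondrial genes were left out of the clustering. The names stand for cells like each type (endothelial-like, Kupffer-like and so on) and are given in short below. Between 705 and 943 barcodes of each library also occurred in another library, and leaving them out moved none of the counts of called members by over 1.5 times. Some types were held by different clusters in different groups. In macro-metastatic libraries most endothelial cells lay in clusters 12 and 15, most Kupffer cells in cluster 4 and most neutrophils in cluster 1, whereas in control libraries most lay in clusters 0 and 3, in clusters 11 and 14, and in cluster 10. The macro-metastatic replicates also differed. Cluster 12 held 23 barcodes of replicate 1 and 2565 of replicate 2, and cluster 15 held 1735 and 190. Endothelial results in macro-metastatic livers therefore join libraries with unlike endothelial clusters.

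RNA of other cell types moved with the groups. In T cells, summed hepatocyte markers were at 1055 and 437 CPM (UMIs scaled to a common library total) in control libraries and 75.9 and 130 in macro-metastatic libraries, while summed neutrophil markers went from 13.7 and 14.1 to 900 and 575. In Kupffer cells the hepatocyte markers were at 530 and 327 against 118 and 141 CPM, and the neutrophil markers at 117 and 85.1 against 576 and 362. Endothelial cells held 870 and 548 against 128 and 195 CPM of hepatocyte markers. The median depth of a T cell was 1733 and 1788 UMIs in control against 3064 and 3052 in macro-metastatic libraries, and that of an endothelial cell 3145 and 2706.5 against 6791 and 6147. The part of these differences in the results below was not tested.

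In macro-metastatic livers, transcripts of the mitochondrial genome took a smaller share of a cell type's summed UMIs than in control livers. In Kupffer cells, the macrophages that reside in liver sinusoids, the 13 mitochondrial protein genes made up 10.5% and 10.5% of UMIs in control libraries, with pre-metastatic values of 7.87% and 7.90% and macro-metastatic values of 6.17% and 6.64%. The group means were 10.5% ± 0.0499, 7.89% ± 0.0206 and 6.40% ± 0.326 (SD, n = 2 each), a log2 ratio of macro-metastatic to control of −0.71, which was −0.42 with only cells under 10% mitochondrial UMIs. The 3 groups did not overlap in this type. Endothelial cells, which line the sinusoids, held 10.8% and 10.3% in control libraries, with pre-metastatic values of 8.92% and 8.61% and macro-metastatic values of 7.16% and 7.94%. Neutrophils held 5.11% and 3.28%, 1.78% and 2.85%, and 1.83% and 1.62%. Both types were highest in both control libraries, and in neutrophils the pre- and macro-metastatic libraries overlapped.

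T cells held a mitochondrial share of 7.89% and 7.33% in control libraries, with pre-metastatic values of 6.20% and 6.68% and macro-metastatic values of 5.71% and 6.35%. B cells moved least, with 9.71% and 8.75%, 7.61% and 8.28%, and 8.01% and 8.58%. Every macro-metastatic library was below every control library in all 11 types with cells in each group at the 25% limit on mitochondrial UMIs per cell, hepatocytes included, but the hepatocyte direction turned with that limit, as given below. Every pre-metastatic library was below every control library in 10 of 12 types, with overlap in basophils and mast cells and in conventional dendritic cells (cDC). Between macro- and pre-metastatic libraries 5 of 11 types were lower and 6 overlapped. With 2 libraries against 2, an exact permutation test cannot go below p = 0.3333, so these shares carry no test. These are shares of UMIs and not counts per cell, and T and endothelial cells were deeper in macro-metastatic libraries, as given above. Such shares cannot tell fewer mitochondrial transcripts per cell from more RNA of other genes. Nor can they tell fewer transcripts per mitochondrion from fewer mitochondria per cell. None of these was tested.

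**Figure D1:**
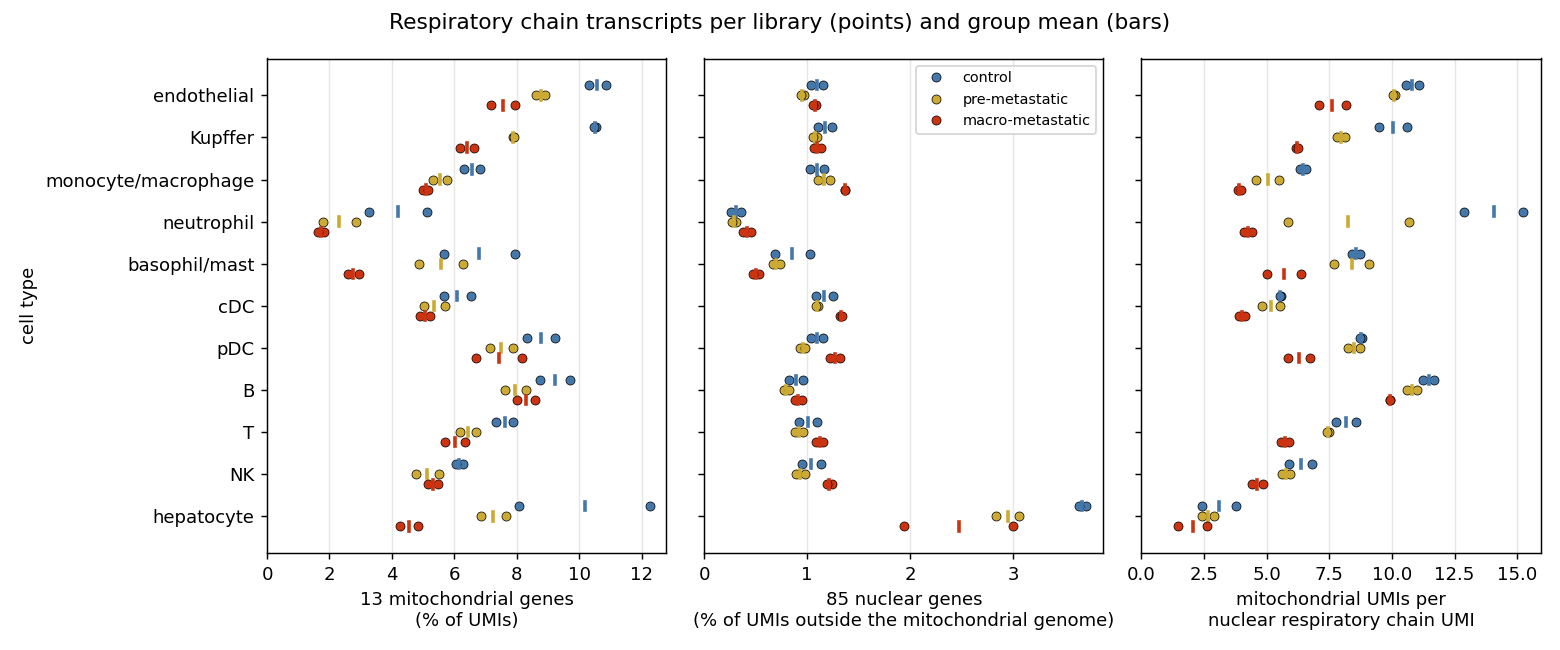
Mitochondrial share (percent of UMIs), nuclear share (percent of UMIs outside the mitochondrial genome) and their ratio in UMIs (x axes) by cell type (y axis); each point is a library, coloured by group, and each bar a group mean. In Kupffer cells the mitochondrial share is 10.5% in each control library but 6.17% and 6.64% in macro-metastatic ones, while the nuclear shares of these groups overlap.

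The lower mitochondrial share also held within 3 clusters that contain cells of each group. Other such clusters are not given here. In Kupffer cluster 14 the share was 9.99% and 9.88% in control libraries (240 and 231 cells). Pre-metastatic values were 7.38% and 7.39% (785 and 609 cells) and macro-metastatic values 7.65% and 6.44% (203 and 69 cells). In T cell cluster 2 it was 8.53% and 8.13%, 7.03% and 7.34%, and 6.56% and 7.08%. In neutrophil cluster 10 it was 5.10% and 3.20%, 1.64% and 2.66%, and 1.45% and 2.00%. That cluster held only 38 and 98 macro-metastatic barcodes, beside 3337 and 3522 in neutrophil cluster 1. Both control libraries were above all 4 others in each of these 3 clusters.

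Hepatocytes went against this pattern when the filter on cells changed. Under the 25% limit the mitochondrial share of hepatocytes was 12.3% and 8.09% in control libraries, with pre-metastatic values of 7.64% and 6.86% and macro-metastatic values of 4.83% and 4.26%, the last from only 24 and 114 cells. With no limit it was 37.3% and 43.9%, 15.9% and 31.4%, and 73.6% and 73.2%, so the macro-metastatic libraries were then highest. Under a 10% limit it was 1.29% and 0.830%, 1.19% and 1.27%, and 3.56% and 1.29%. The log2 ratio of macro-metastatic to control means was therefore −1.16 at the 25% limit, 0.85 with no limit and 1.19 at the 10% limit.

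Hepatocyte barcodes fell into modes of low and high mitochondrial content. With no limit, the share of hepatocyte barcodes under 2% mitochondrial UMIs, a threshold chosen after the values were seen, was 27.9% and 40.4% in control libraries, with pre-metastatic values of 55.7% and 45.2% and macro-metastatic values of 3.14% and 15.9%. At or above 25% lay 43.3% and 44.3%, 15% and 32.5%, and 87.4% and 73.7%. The low mode was shallower, with median depths of 804.5 to 2767 UMIs against 6885 to 11462.5 in the high mode. Malat1, a long RNA that stays in the nucleus, was taken over UMIs outside the mitochondrial genome, so its percents are not of all UMIs. It made up 0.00531% to 0.103% of these in the low mode and 0.204% to 1.10% in the high mode. Each library's low mode was below its own high mode in both measures. The part of nuclear loss, cell damage or free RNA in these modes was not tested.

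**Figure D2:**
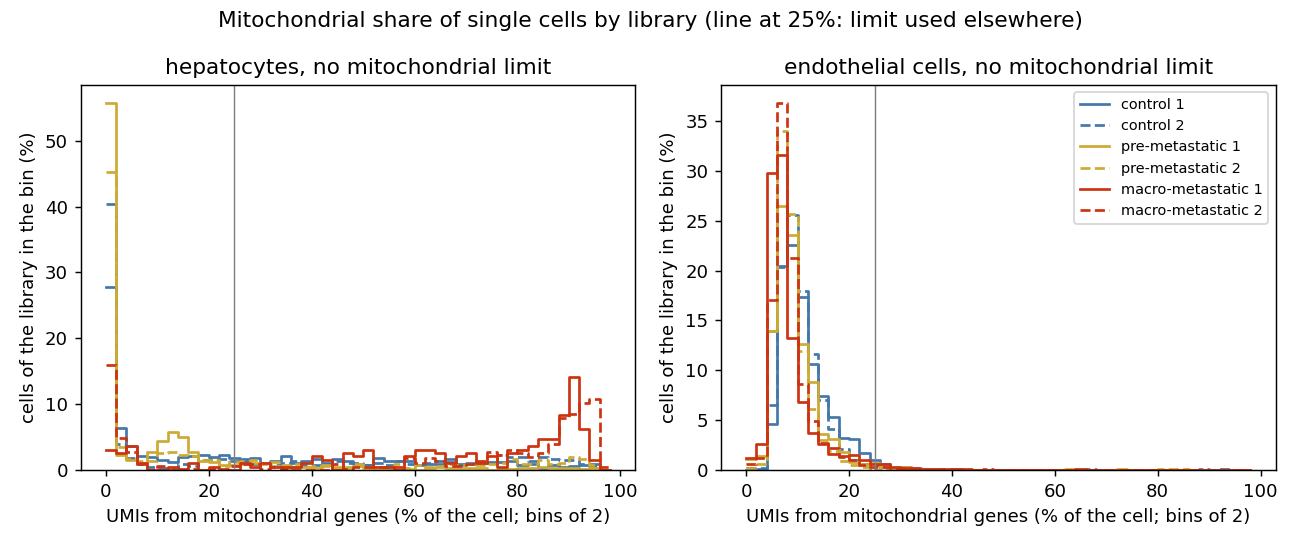
Percent of a library's cells (y axes) by mitochondrial UMIs per cell (percent, x axes) in hepatocytes and, for comparison, endothelial cells, with no limit applied; each line is a library and the vertical line marks the 25% limit. Hepatocyte barcodes at or above 25% make up 43.3% and 44.3% in control libraries and 87.4% and 73.7% in macro-metastatic libraries.

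In macro-metastatic livers, nuclear respiratory chain genes did not follow the mitochondrial share. Taken over the UMIs outside the mitochondrial genome, they made up 1.10% and 0.922% in T cells of control libraries, with pre-metastatic values of 0.884% and 0.964% and macro-metastatic values of 1.09% and 1.15%, so the controls and the macro-metastatic libraries overlapped. Conventional dendritic cells, specialists in antigen presentation, held 1.25% and 1.08%, 1.10% and 1.09%, and 1.32% and 1.34%, highest in both macro-metastatic libraries. Endothelial cells held 1.15% and 1.04%, 0.967% and 0.938%, and 1.09% and 1.06%. Across 11 types, macro-metastatic libraries were separated from controls upwards in 5 (NK cells, cDC, monocytes and macrophages, neutrophils and plasmacytoid dendritic cells, pDC), downwards in 2 (hepatocytes, and basophils and mast cells) and overlapped in 4. The log2 ratio in basophils and mast cells was −0.77, but 0.23 with cells named by the marker gate alone. Against pre-metastatic libraries 8 types were higher, 1 was lower and 2 overlapped. Between pre-metastatic and control libraries 6 of 12 types were lower, 0 were higher and 6 overlapped, so there the nuclear share leaned the same way as the mitochondrial share.

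Mitochondrial UMIs per nuclear respiratory chain UMI set both against each other in the UMIs summed per library and cell type, not in single cells. In Kupffer cells this ratio was 9.48 and 10.6 in control libraries, with pre-metastatic values of 7.79 and 8.14 and macro-metastatic values of 6.19 and 6.25. In neutrophils it was 15.2 and 12.9, 5.84 and 10.7, and 4.10 and 4.41. In B cells, the type that moved least, it was 11.2 and 11.7, 10.6 and 11, and 9.91 and 9.91. The ratio was lower in both macro-metastatic than in both control libraries in 10 of 11 types, with overlap in hepatocytes (3.77 and 2.42 against 2.61 and 1.48), and lower in 8 of 12 types in pre-metastatic libraries.

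Single members were tested in 9 cell types with at least 30 cells in each library. Of the 98 members, 62 (51 of them nuclear) passed the filter on low counts in all 9 types and 5 passed in none, so the counts below cover only members measured well enough. The filter needs only 2 libraries at its threshold, so a low member may be tested only where macro-metastatic libraries are high. Tallies of types for such members are then partly set by the filter. Values per library are CPM after scaling by the trimmed mean of M values (TMM). Between macro-metastatic and control livers, called nuclear members were mostly higher and called mitochondrial members were all lower. In Kupffer cells 27 of 79 nuclear members rose and 4 fell, where 20.5% of all genes tested rose and 18.6% fell, and 9 of 13 mitochondrial genes fell. The median log2 fold change was 0.22 over nuclear members, −0.50 over mitochondrial members and 0.00 over all genes. Without control replicate 1 or control replicate 2 the mitochondrial count was 2 or 3, and with only cells under 10% mitochondrial UMIs it was 1. At that limit it was also 1 each in T cells, endothelial cells, and basophils and mast cells. The 4 falls became 0 without control replicate 1 and 2 without any of the other 5 libraries.

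In endothelial cells 21 of 77 nuclear members rose and 3 fell, beside 17% and 10.3% of all genes, and 2 of 13 mitochondrial genes fell. Without control replicate 1 the rises numbered 6 and without control replicate 2 they numbered 10. The falls became 0 without control replicate 1, control replicate 2 or pre-metastatic replicate 1, 1 without pre-metastatic replicate 2 and 5 without macro-metastatic replicate 1. The mitochondrial count was 0 without either control or either pre-metastatic replicate, 1 without macro-metastatic replicate 1 and 4 without macro-metastatic replicate 2. In T cells 24 of 76 nuclear members rose and 2 fell, beside 15.8% and 11.9% of all genes, and 4 of 13 mitochondrial genes fell. Without macro-metastatic replicate 1 or 2 the T cell rises were 15 and 11 and the mitochondrial falls 1 and 1. The nuclear falls were 5 without control replicate 2 and 1 without control replicate 1, macro-metastatic replicate 1 or macro-metastatic replicate 2.

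Conventional dendritic cells had 24 rises and 0 falls among 78 nuclear members, beside 8.09% and 4.03% of all genes. These numbered 13, 11 and 15 without control replicate 1, control replicate 2 and macro-metastatic replicate 1. NK cells had 15 rises and 0 falls among 67, beside 10.1% and 3.89% of all genes, and 6 rises without control replicate 1 or without control replicate 2. B cells had 14 rises and 1 fall among 70, beside 10.8% and 7.32% of all genes. The B cell rises were 7, 8 and 8 without control replicate 2, macro-metastatic replicate 1 and macro-metastatic replicate 2, and the falls were 4 and 2 without the first and the second of these. Plasmacytoid dendritic cells, a source of type I interferon, had 12 rises and 0 falls among 70, beside 7.83% and 6.56% of all genes. Their rises numbered 2, 5, 6 and 1 without control replicate 1, control replicate 2, macro-metastatic replicate 1 and macro-metastatic replicate 2.

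No mitochondrial gene was called by edgeR's quasi-likelihood test in B cells, cDC, NK cells or pDC. The unadjusted p was under 0.05 for 1 of 13, 3 of 13, 1 of 12 and 2 of 12 genes. DESeq2 called 0 in each of these types.

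Neutrophils had 5 rises and 0 falls among 68 nuclear members, beside 5.37% and 4.55% of all genes, and 8 of 13 mitochondrial genes fell. Their median log2 fold change was 0.71 over nuclear and −1.31 over mitochondrial members, beside 0.11 over all genes. Without control replicate 1 or control replicate 2, which held only 118 and 226 neutrophils, both counts became 0, and without macro-metastatic replicate 1 the rises numbered 2. Basophils and mast cells had 0 rises and 3 falls among 51 nuclear members, both less often than the 16.2% and 16.9% of all genes, and 4 of 11 mitochondrial genes were lower. With cells named by the marker gate alone, nuclear and mitochondrial falls were both 0 in this type. Their falls ranged from 0 to 10 and the mitochondrial count from 0 to 5 as single libraries were left out. Nuclear falls were 1, 10, 0 and 1, and mitochondrial falls 0, 2, 0 and 0, without control replicate 1, control replicate 2, macro-metastatic replicate 1 and macro-metastatic replicate 2. They also held neutrophil markers at 1441 and 2897 CPM in control and 11250 and 11636 in macro-metastatic libraries.

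**Figure D3:**
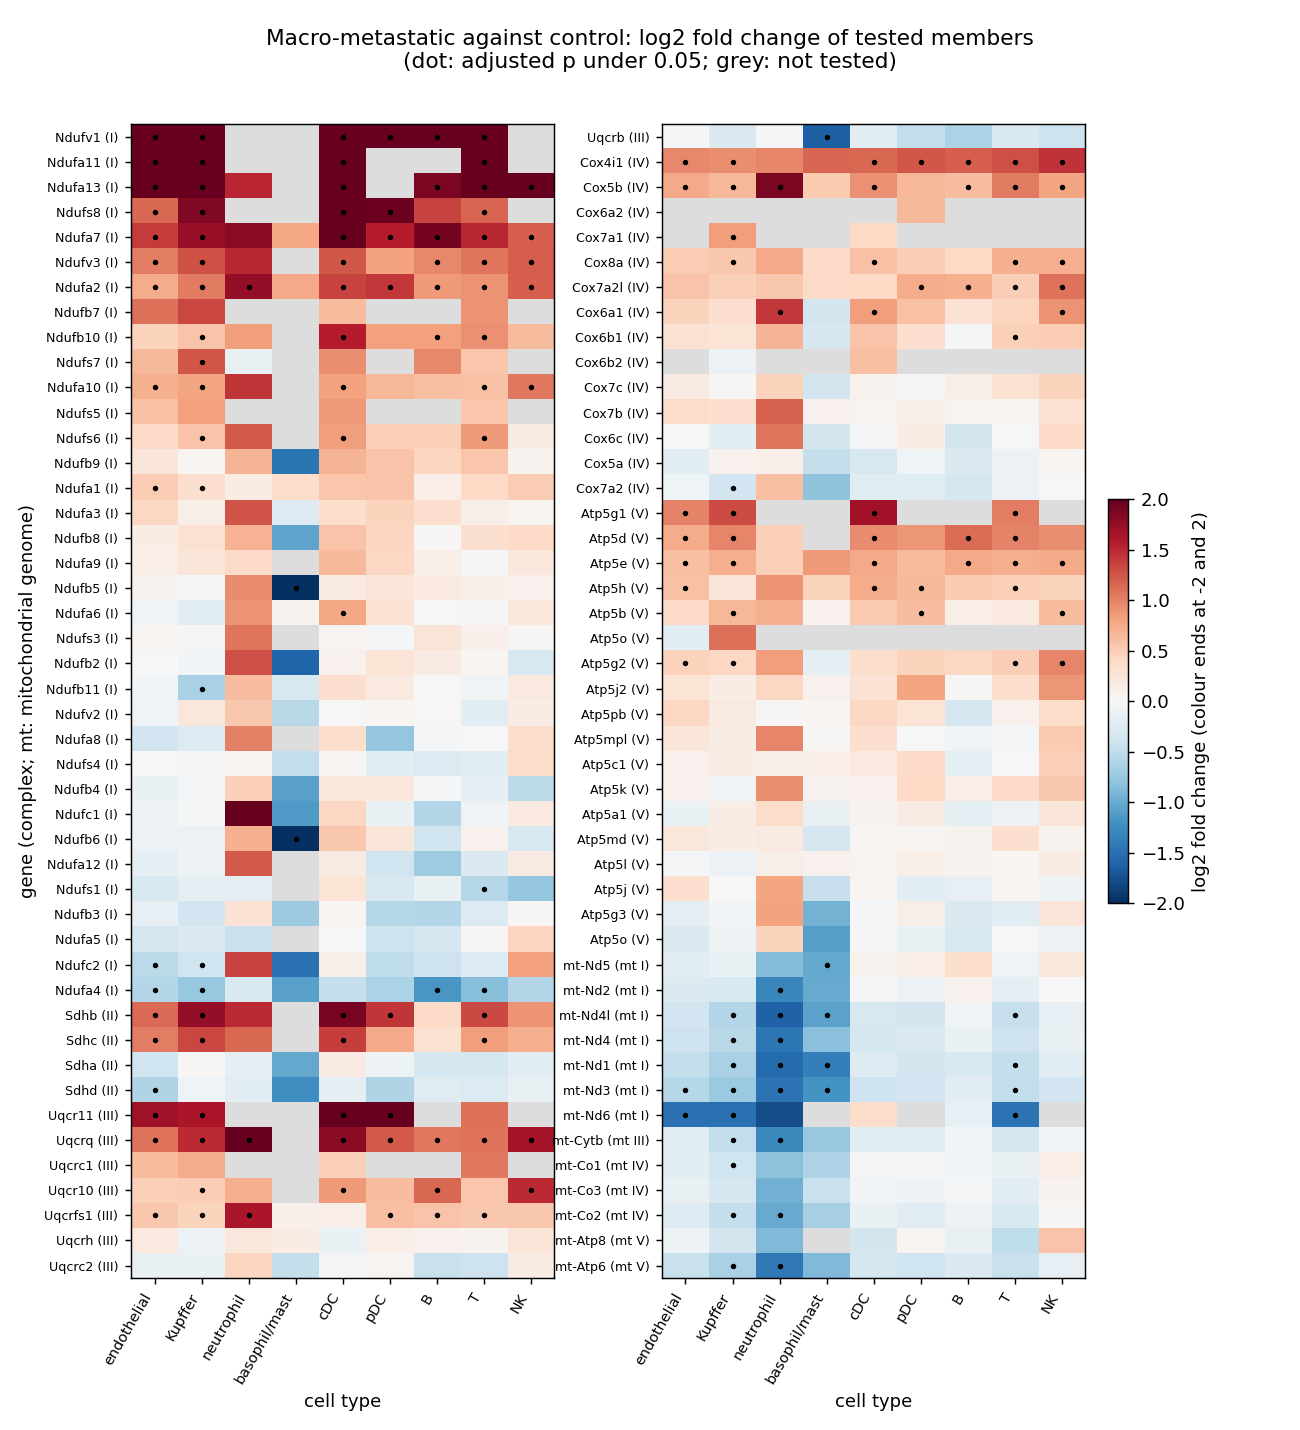
Log2 fold change of members between macro-metastatic and control livers (colour, ending at −2 and 2) by cell type (x axis) and gene, ordered by genome and complex (y axis); a dot marks an adjusted p under 0.05 and grey a gene not tested. Nuclear members mix rises and values near 0, with 27 of 79 risen in Kupffer cells, and the mitochondrial genes are mostly negative, with 9 of 13 fallen in Kupffer cells.

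The promoters of 4 nuclear members that moved in opposite ways are shown, chosen after their values were seen. Cox5b and Sdhb rose in several types, and Ndufa4 and Sdhd were called only lower. Each sequence comes from RefSeq's table on GRCm38.p6, written 5′ to 3′ along the gene's strand, and 69 of the 85 nuclear members matched that table. It begins 250 bases before the RefSeq start and stops at the first start of the gene in either annotation. For Sdhd that is the RefSeq start, and for Cox5b, Sdhb and Ndufa4 it is the GENCODE start, 38, 68 and 47 bases before the RefSeq one. Capitals mark the core of the site of NRF1, a factor known to drive nuclear respiratory genes (TGCGCA), and the core of ETS factors such as GABP (CCGGAAG, or CTTCCGG on the opposite strand).
Cox5b (chr1:36691237-36691448, plus strand): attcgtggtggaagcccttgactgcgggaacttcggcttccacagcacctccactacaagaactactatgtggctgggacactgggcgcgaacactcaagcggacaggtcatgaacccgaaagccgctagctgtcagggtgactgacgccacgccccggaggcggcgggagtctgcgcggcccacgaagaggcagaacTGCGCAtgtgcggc
Sdhb (chr4:140961021-140961202, plus strand): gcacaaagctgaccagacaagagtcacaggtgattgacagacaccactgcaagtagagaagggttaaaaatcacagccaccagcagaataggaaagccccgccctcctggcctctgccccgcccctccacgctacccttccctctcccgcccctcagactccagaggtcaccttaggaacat
Sdhd (chr9:50603850-50604099, minus strand): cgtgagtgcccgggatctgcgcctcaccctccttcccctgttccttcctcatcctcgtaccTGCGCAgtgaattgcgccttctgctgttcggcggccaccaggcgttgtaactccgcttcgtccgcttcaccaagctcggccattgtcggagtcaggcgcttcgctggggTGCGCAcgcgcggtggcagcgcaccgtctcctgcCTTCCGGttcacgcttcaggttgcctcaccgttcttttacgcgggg
Ndufa4 (chr6:11907498-11907700, minus strand): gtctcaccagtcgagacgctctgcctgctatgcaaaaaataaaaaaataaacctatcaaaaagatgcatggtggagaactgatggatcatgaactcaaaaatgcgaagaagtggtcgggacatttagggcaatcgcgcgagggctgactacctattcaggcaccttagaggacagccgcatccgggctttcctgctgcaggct

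The Cox5b window held 1 NRF1 core, 14 bases before its end. The Sdhd window held 2, at 189 and 80 bases before its end, and 1 ETS core at 46. The printed stretches of Sdhb and Ndufa4 held none of these letters, but the full window of Sdhb, which runs past the printed stretch, held 1 ETS core. Over the full windows of 300 bases, from 250 before to 50 after the RefSeq start, TGCGCA occurred on either strand in 18 of 69 members (26.1%) and in 7.76% of all 32851 promoters. CCGGAAG occurred in 16 members (23.2%) and in 8.86% of promoters, and AAGATGG, the core of YY1, in 10 (14.5%) and 6.34%. The median GC content of the windows was 57% in members and 52.7% overall. A match describes the letters and not a bound site.

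Complex I, which oxidises NADH, had the largest rises, some of them in genes low enough for the filter on low counts to matter. Ndufv1, the subunit that holds the flavin where NADH is oxidised, was at 3.57 and 4.99 CPM in control endothelial cells, with pre-metastatic values of 1.92 and 2.92 and macro-metastatic values of 28.4 and 35.4, a log2 fold change of 2.88 (SE 0.27, adjusted p = 0.000524). It rose in all 6 types in which it was tested, by 2.76 to 3.20, but the filter could admit so low a gene through macro-metastatic libraries alone. Both macro-metastatic libraries were above both controls in each of these 6 types, but the filter and the call partly set this, so it adds no support. Ndufa7, an accessory subunit, was at 33.0 and 40.0, 25.7 and 33.1, and 106 and 86.7 CPM in endothelial cells (log2 fold change 1.40, SE 0.19, adjusted p = 0.00234) and rose in 7 of 9 types. In B cells it was at 20.6 and 19.2, 27.6 and 24, and 76.7 and 74.8 CPM.

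Ndufa11, an accessory membrane subunit, rose in all 4 types that could test it, with 0.923 and 1.18 CPM in control and 8.78 and 8.12 in macro-metastatic Kupffer cells. At this level the filter could likewise admit Ndufa11 through macro-metastatic libraries alone. Ndufa13, also known as GRIM-19, rose in 6 of 7 types and stood at 8.74 and 11.6 CPM in control and 53.6 and 33.5 in macro-metastatic T cells. Ndufs8, which carries iron-sulfur clusters, rose in 5 of 6 types, and Ndufa2 in 8 of 9. In Kupffer cells Ndufa2 was at 89.2 and 91.6, 70.2 and 83.5, and 183 and 190 CPM (log2 fold change 1.04, SE 0.13, adjusted p = 0.000578). Ndufv3, an accessory subunit of the NADH-binding arm, rose in 6 of 8, from 49.2 and 43.7 to 88.5 and 105 CPM in T cells.

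Other complex I genes did not rise. Ndufa4 fell in 4 of 9 types and was negative in all 9. In endothelial cells it was at 358 and 307 CPM in control libraries, with pre-metastatic values of 336 and 304 and macro-metastatic values of 224 and 217 (log2 fold change −0.59, SE 0.15, adjusted p = 0.0252). In B cells it was at 205 and 160, 188 and 146, and 61.0 and 95.7 (−1.16, SE 0.22, adjusted p = 0.000998), and the macro-metastatic libraries lay below all others in both types. Ndufs1, the largest core subunit, fell in T cells from 60.3 and 52.0 to 36.8 and 38.9 CPM (−0.57, adjusted p = 0.0314). Ndufc2 fell in endothelial cells from 151 and 127 to 98.1 and 92.9, and in Kupffer cells by 0.40 on the log2 scale. Ndufb11 fell in Kupffer cells from 121 and 108 to 70.1 and 75.2 CPM, and Ndufb5 and Ndufb6 fell in basophils and mast cells by 2.11 and 2.01 on the log2 scale. Of 36 nuclear complex I genes, some of them tested in only 4 of 9 types, 12 rose and 3 fell in Kupffer cells. Over all genes 20.5% rose and 18.6% fell there. In endothelial cells 9 rose and 2 fell, beside 17% and 10.3% of all genes. In T cells 10 rose and 2 fell (15.8% and 11.9%), and in cDC 11 rose and 0 fell (8.09% and 4.03%).

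Complex II, succinate dehydrogenase, moved in opposite ways among its 4 subunits. Sdhb, the iron-sulfur subunit, was at 22.8 and 21.5 CPM in control Kupffer cells, with pre-metastatic values of 21.2 and 22.7 and macro-metastatic values of 71.0 and 78.4 (log2 fold change 1.75, SE 0.13, adjusted p = 5.08e-05). In endothelial cells it was at 19.1 and 20.8, 13.4 and 17.6, and 39.9 and 47.6 (1.13, SE 0.19). Sdhc, a membrane anchor, was at 41.1 and 58.8, 47.9 and 43.3, and 95.7 and 107 CPM in endothelial cells (1.02, SE 0.19, adjusted p = 0.00844). Both rose in 5 and 4 of 8 types, and neither fell in any. Sdha, the flavoprotein that oxidises succinate, was not called in any of 9 types, with 143 and 135, 150 and 140, and 144 and 140 CPM in Kupffer cells. Sdhd, the other membrane anchor, fell in endothelial cells from 101 and 83.6 to 61.2 and 60.8 CPM (−0.60, SE 0.14, adjusted p = 0.0211) and was negative in all 9 types, from −1.25 to −0.08.

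Complex III, which passes electrons to cytochrome c, had its most frequent change in Uqcrq, a small subunit of the ubiquinone-binding region. Uqcrq was at 62.9 and 55.3 CPM in control Kupffer cells, with pre-metastatic values of 52.7 and 60.9 and macro-metastatic values of 171 and 162 (log2 fold change 1.49, SE 0.14, adjusted p = 0.000114). In cDC it was at 58.7 and 48.1, 56.1 and 68.8, and 196 and 174 (1.81, SE 0.20), and in neutrophils at 26.2 and 24.3, 39.6 and 40.9, and 103 and 105 (2.05, SE 0.33). It rose in all 8 types that could test it, and in these 3 the macro-metastatic libraries were above all others. Uqcrfs1, the Rieske iron-sulfur protein, rose in 6 of 9 types, with 92.0 and 83.8, 94.7 and 97.5, and 126 and 129 CPM in endothelial cells (0.54). Uqcr10 rose in 4 of 8 types and Uqcr11 in 4 of 5, the latter from 5.54 and 9.29 to 27.4 and 18.1 CPM in Kupffer cells. Uqcrb was negative in all 9 types and fell in basophils and mast cells, from 317 and 159 to 84.3 and 71.4 CPM. Uqcrc2 and Uqcrh, tested in 9 types, and Uqcrc1, tested in 4, were called in none by edgeR's quasi-likelihood test.

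Complex IV, cytochrome c oxidase, rose in its regulatory subunit Cox4i1 in 7 of 9 types. In T cells Cox4i1 was at 97.8 and 112 CPM in control libraries, with pre-metastatic values of 71.2 and 117 and macro-metastatic values of 224 and 289 (log2 fold change 1.30), and in NK cells at 86.8 and 150, 94.7 and 103, and 322 and 336 (1.44, SE 0.24, adjusted p = 0.000276). Cox5b, a subunit on the matrix side, rose in 7 of 9 types, with 88.2 and 75.1, 74.2 and 92.2, and 172 and 166 CPM in T cells (1.05, SE 0.16, adjusted p = 0.00113). Macro-metastatic libraries were above all others for both genes in these types. Cox7a2l and Cox8a each rose in 4 of 9 types. Cox5a, Cox6c, Cox7b and Cox7c were not called in any of 9 types, and Cox7a2 fell in Kupffer cells, from 188 and 163 to 136 and 133 CPM (−0.38, SE 0.12, adjusted p = 0.0411).

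Some complex IV subunits have forms that other tissues favour. Cox6a2, the heart and muscle form of subunit 6A, had 784 of its UMIs in pDC, 92.5% of all its gated UMIs. It was at 180 and 238 CPM in control pDC, with pre-metastatic values of 130 and 198 and macro-metastatic values of 312 and 340, a log2 fold change of 0.65 that did not pass (adjusted p = 0.0669), although the control and macro-metastatic libraries did not overlap. Cox4i2, a form induced by low oxygen in lung, had 53 UMIs in gated cells, 64.2% of them in Kupffer cells. Cox7a1 rose in Kupffer cells from 2.31 and 2.80 to 4.88 and 4.19 CPM (0.83, adjusted p = 0.0491). Cox8c had no UMI in any barcode, and Cox7b2, Cox8b and Cox5b-ps had 5, 6 and 185.

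Complex V, ATP synthase, changed in few of its parts. Atp5g1, 1 of 3 genes that encode the same ring subunit, was at 11.2 and 9.14 CPM in control Kupffer cells, with pre-metastatic values of 5.99 and 7.09 and macro-metastatic values of 22.4 and 28.1 (log2 fold change 1.31), and rose in all 4 types that could test it. That tally may be partly set by the filter on low counts. Atp5g2 was at 305 and 303, 277 and 298, and 390 and 417 CPM (0.41) and rose in 4 of 9 types, whereas Atp5g3 was at 438 and 354, 416 and 385, and 367 and 395 (−0.06) and was called in none. In Kupffer cells the control and macro-metastatic libraries overlapped for Atp5g3 and not for Atp5g1 or Atp5g2. Atp5e and Atp5d, parts of the central stalk, rose in 6 of 9 and 5 of 8 types. In Kupffer cells Atp5e was at 144 and 119, 117 and 122, and 218 and 219 CPM (0.73), and Atp5d went from 23.3 and 20.9 to 50 and 37.5 (0.98, adjusted p = 0.00519). Of the catalytic head, Atp5b rose in 3 of 9 types and Atp5a1 in none. No nuclear complex V gene fell in any of the 9 types.

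**Figure D4:**
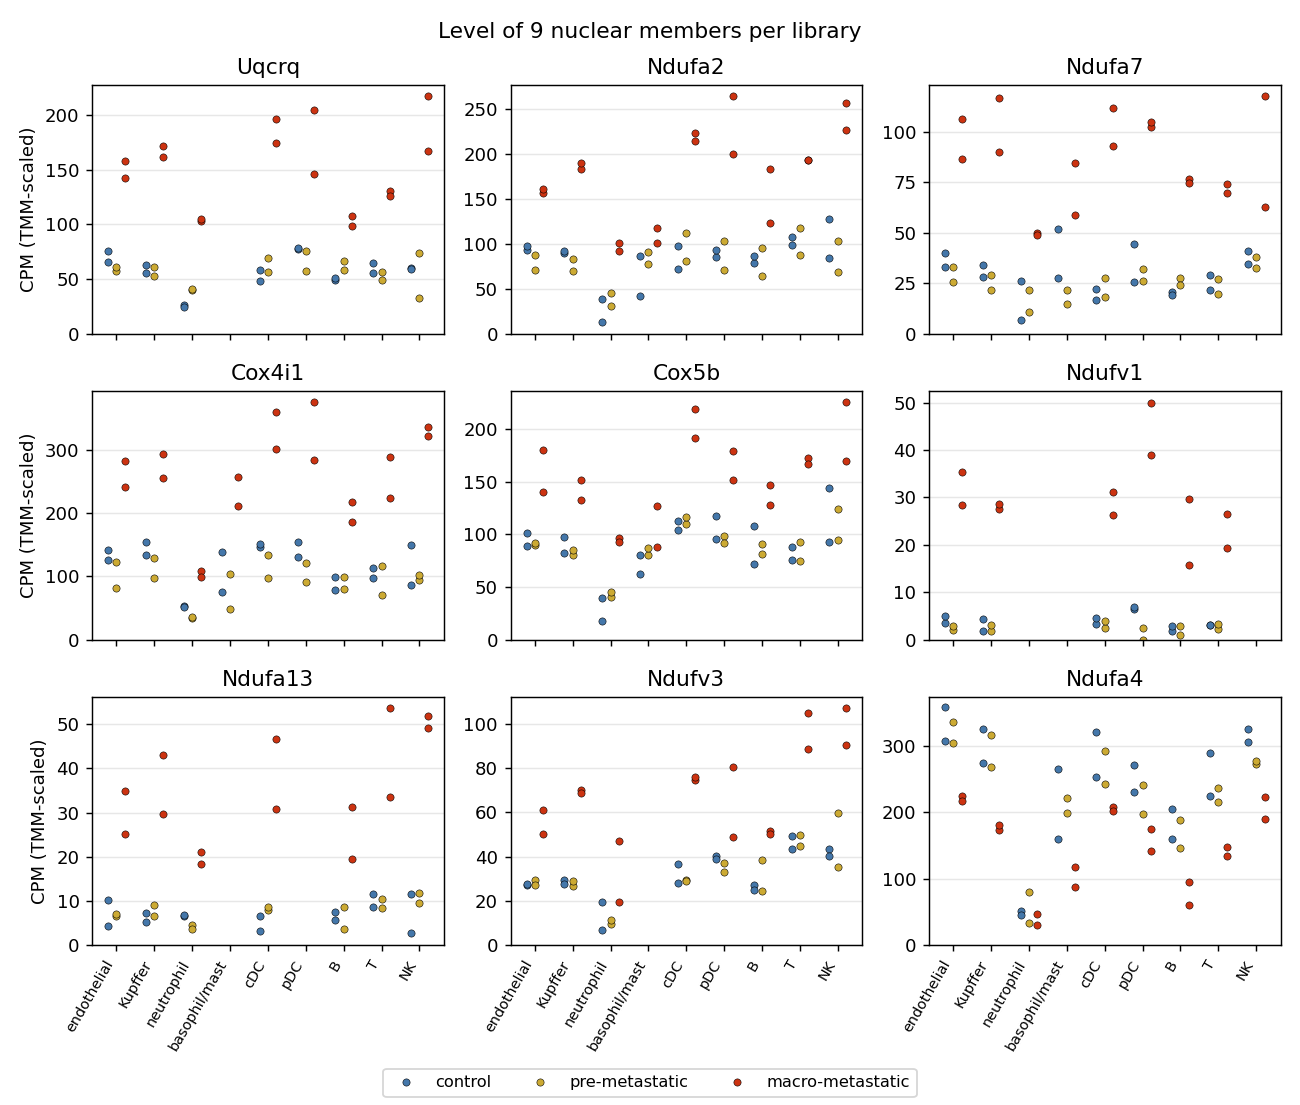
CPM after TMM scaling (y axes, linear from 0) of the 8 nuclear members called in most cell types and of Ndufa4, by cell type (x axes); each point is a library, coloured by group. Uqcrq lies at 62.9 and 55.3 CPM in control and 171 and 162 in macro-metastatic Kupffer cells, and Ndufa4 at 326 and 274 against 174 and 181.

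Mitochondrial genes fell in several complexes. In Kupffer cells mt-Nd1, a core membrane subunit of complex I, was at 8049 and 8063 CPM in control libraries, with pre-metastatic values of 6187 and 6072 and macro-metastatic values of 4752 and 5524 (log2 fold change −0.65, SE 0.14, adjusted p = 0.00725). There mt-Cytb, the only mitochondrial subunit of complex III, was at 11309 and 10810, 7496 and 7887, and 7508 and 8137 (−0.50, SE 0.13, adjusted p = 0.0186). The ATP synthase subunit mt-Atp6 was at 16951 and 15641, 12405 and 12503, and 10258 and 10482 (−0.65, SE 0.13, adjusted p = 0.00601). Both control libraries were above all 4 others for each of these genes. The complex IV gene mt-Co1 fell from 20442 and 19745 to 15802 and 14591 CPM (−0.40, SE 0.13, adjusted p = 0.0457). In neutrophils mt-Nd1 was at 3374 and 2566, 1244 and 2118, and 948 and 1088 CPM (−1.54, SE 0.27, adjusted p = 0.0104).

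Across types mt-Nd3 fell most often, in 5 of 9, and mt-Nd1 and mt-Nd4l in 4 of 9 each. In endothelial cells mt-Nd3 was at 4142 and 3801, 3087 and 3234, and 2361 and 2967 CPM (−0.58, SE 0.18, adjusted p = 0.0497). The only protein gene on the other strand of the mitochondrial genome, mt-Nd6 (chrM:13552-14070), fell in 3 of the 6 types that could test it, and had the largest called fall of the mitochondrial genes in each of these 3 types. It was at 11.7 and 21.4, 16.6 and 13.6, and 5.22 and 6.42 CPM in Kupffer cells (−1.49, SE 0.30, adjusted p = 0.00568), and at 16.8 and 25.1, 18.9 and 14.4, and 7.11 and 7.67 in T cells (−1.47, SE 0.32, adjusted p = 0.00675). Its end overlaps that of mt-Nd5 (chrM:11742-13565), and the sources used here do not say whether counting used strand. By gene copies, 100% of the stretches of 31 bases in mt-Co2, 99.8% in mt-Co3, 99.4% in mt-Atp6, 98.9% in mt-Nd4l, 98.1% in mt-Nd3 and 95.5% in mt-Co1 also occur in another annotated gene, so their counts depend on how the authors treated such reads. For mt-Nd1 and mt-Nd4 this share was 0%.

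Among nuclear members, Ndufs3 (67.4%), Ndufs5 (49.8%), Atp5h (48.9%), Cox7c (43.2%), Ndufb11 (35.7%), Ndufb9 (31.9%) and Atp5g2 (30.2%) shared many such stretches with other genes and are uncertain for the same reason. Sdhb, Sdhd, Uqcrq and Cox4i1 shared none and Ndufa4 2.77%. The second Atp5o entry shared 93.6% and overlaps both Atp5o and Donson.

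The changes of nuclear members went with the base composition of their transcripts. Across 80 nuclear genes, the GC content of the last 500 bases and the median log2 fold change over cell types had a Spearman rho of 0.579 and a Pearson r of 0.540, given as a description, since genes are not replicates. In Kupffer cells the 31 members over 50% GC had a median of 0.74, beside 0.51 over all 3123 genes of that GC range, and 17 of these members rose, beside 38.4% of such genes. The 20 members under 42% GC had a median of −0.00 beside −0.17. In endothelial cells the medians over 50% GC were 0.57 for 29 members and 0.45 for all genes of that range, with 12 members risen beside 30.7%. In 8 of 9 types the medians over 50% GC were above 0 both for members (0.52 to 0.90) and for all genes. The exception was basophils and mast cells, where 14 such members had a median of −0.08 with 0 risen, beside 0.60 and 34.3% risen over all genes of that range.

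With GC content and length entered as offsets, the split of rises and falls among nuclear members changed. It went from 27 and 4 to 19 and 12 in Kupffer cells, where 19.2% and 18.5% of all genes were then called, and from 21 and 3 to 11 and 12 in endothelial cells (13.6% and 12.8%). In T cells it went from 24 and 2 to 12 and 10 (13.8% and 12.4%), in B cells from 14 and 1 to 7 and 10 (9.22% and 7.73%), in NK cells from 15 and 0 to 1 and 4 (7.72% and 5.1%) and in cDC from 24 and 0 to 13 and 2 (5.43% and 3.91%). In pDC it became 5 and 2 (7.78% and 5.36%), in neutrophils 2 and 0 (2.63% and 6.41%) and in basophils and mast cells 0 and 11 (18.6% and 14.9%). Mitochondrial falls then numbered 4 in Kupffer, 2 in endothelial, 7 in T, 5 in NK and 11 in neutrophil cells. The median over nuclear members became negative in B, NK, T and endothelial cells, at −0.12, −0.08, −0.03 and −0.04.

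**Figure D5:**
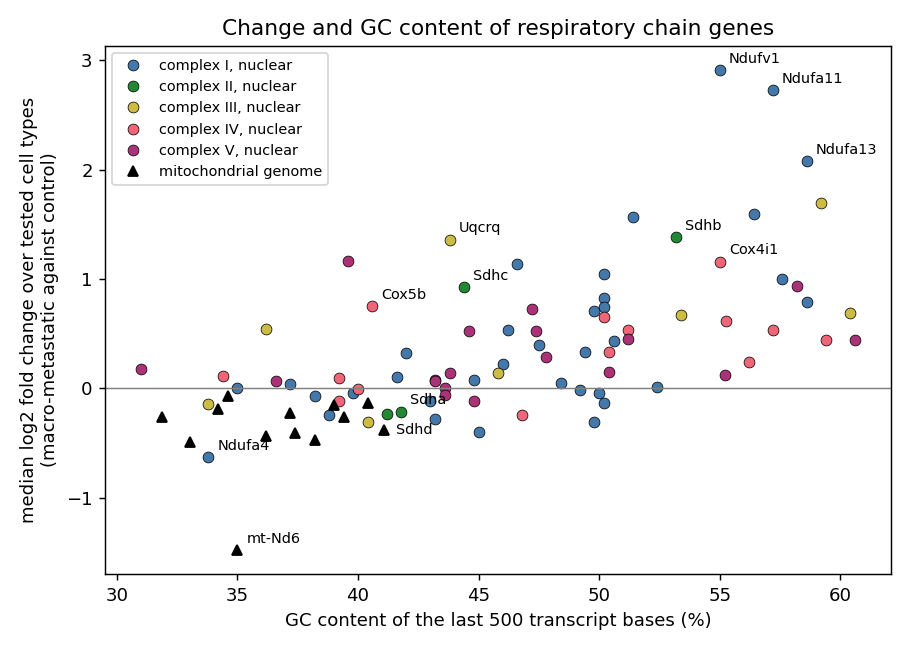
Median log2 fold change of members over their tested cell types, macro-metastatic against control (y axis), by the GC content of the last 500 bases of the transcript (percent, x axis); circles are nuclear genes coloured by complex and triangles mitochondrial genes. GC-rich nuclear members lie higher, with a Spearman rho of 0.579 over all 80 nuclear genes with a value.

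In pre-metastatic livers no member was called against control in any of 10 cell types by edgeR's quasi-likelihood test, where few genes were called in either direction. The share of all genes was 0.708% in hepatocytes, 0.385% in T cells, 0.379% in Kupffer cells, 0.267% in B cells, 0.158% in endothelial cells, 0.0924% in pDC, 0.0645% in NK cells, 0.0295% in cDC and 0% in neutrophils and in basophils and mast cells. At an unadjusted p under 0.05, nuclear members numbered 7 in hepatocytes, 5 in cDC, 4 in Kupffer cells, 3 each in B, endothelial, NK and pDC, and 1 each in T cells, neutrophils, and basophils and mast cells. Mitochondrial genes at that level numbered 8 in Kupffer cells and 8 in neutrophils. The share of all genes at that level is not given here, so these counts are not read as a change of members. DESeq2 called 4 mitochondrial genes in Kupffer cells and no member in any other type. In some types the medians leaned downwards, at −0.17 over nuclear and −0.27 over mitochondrial members in endothelial cells and −0.27 and −0.51 in hepatocytes, beside −0.01 and 0.00 over all genes. Neutrophils went otherwise, with nuclear medians of 0.03, 0.24 and 0.09 from the lowest to the highest GC range, beside 0.06, 0.08 and 0.13 over all genes. In cDC the nuclear members over 50% GC had a median of 0.05. Only 7 of 77 nuclear members were positive in endothelial cells, 11 of 76 in T cells and 6 of 70 in pDC, where the median over all genes was −0.013, −0.013 and −0.004. This comparison shares its control libraries with the previous one.

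Between macro- and pre-metastatic livers, called nuclear members were again mostly higher. Rises and falls numbered 27 and 1 of 76 in T cells (12.5% of all genes rose and 8.99% fell), 27 and 0 of 78 in cDC (11.1% and 6.57%), 26 and 2 of 79 in Kupffer cells (17.5% and 15.4%) and 20 and 0 of 77 in endothelial cells (11.5% and 3.82%). Monocytes and macrophages, which could be tested in these groups only, had 28 and 0 of 78 (9.15% and 4.6%). NK cells had 18 and 0 of 67 (9.71% and 4.55%), pDC 18 and 0 of 70 (6.43% and 4.52%), B cells 16 and 1 of 70 (8.54% and 5.34%), neutrophils 8 and 0 of 68 (5.07% and 4.07%), and basophils and mast cells 3 and 0 of 51 (15.2% and 15.7%). Mitochondrial genes fell in fewer cases, 2 in T cells and 1 each in Kupffer cells and neutrophils. These comparisons share the macro-metastatic libraries with the one against controls.

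Many of these counts rested on single libraries. Monocyte and macrophage rises were 3, 9 and 8 without macro-metastatic replicate 1, macro-metastatic replicate 2 and pre-metastatic replicate 1, and 8 with GC and length offsets. Without pre-metastatic replicate 1 the rises were 12 in T cells, 11 in cDC, 6 in endothelial cells, 5 in NK cells, 8 in pDC, 5 in B cells, 1 in neutrophils and 0 in basophils and mast cells. Without pre-metastatic replicate 2 they were 10 in endothelial cells, 10 in NK cells, 10 in pDC, 9 in B cells, 4 in neutrophils and 1 in basophils and mast cells. Without macro-metastatic replicate 1 they were 11 in NK cells, 2 in neutrophils and 1 in basophils and mast cells, and without macro-metastatic replicate 2 they were 12 in T cells, 2 in pDC, 8 in B cells and 0 in basophils and mast cells. The 26 rises in Kupffer cells stayed between 21 and 25. The 2 mitochondrial falls in T cells became 0 without either macro-metastatic replicate or pre-metastatic replicate 1, and 1 without pre-metastatic replicate 2. The single fall in Kupffer cells became 2 without macro-metastatic replicate 1, and that in neutrophils 0 without either control replicate, macro-metastatic replicate 2 or pre-metastatic replicate 2.

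To ask whether a cell type changed differently from B cells of the same libraries, the difference of the 2 changes was tested directly. In Kupffer cells 3 nuclear members rose more and 1 fell more than in B cells, beside 5.68% and 6.23% of all genes, and 4 mitochondrial genes fell more. The 4 mitochondrial calls became 0 without either control replicate, under 10% mitochondrial UMIs or with no limit on them, and 8 without macro-metastatic replicate 1. The 4 nuclear calls became 1, 2 and 2 without control replicate 1, control replicate 2 and macro-metastatic replicate 1. Sdhb differed by a log2 value of 1.42 (SE 0.32, adjusted p = 0.00343) and Sdhc by 1.06 (SE 0.27, adjusted p = 0.0112). In neutrophils 7 nuclear members rose more (4.36% of all genes) and 1 mitochondrial gene fell more (1.24%). The median difference of all genes was itself 0.61 in this fit, so these rises are relative to that shift. Both neutrophil counts became 0 without either control replicate, and the nuclear count became 13, 15 and 20 without pre-metastatic replicate 1, pre-metastatic replicate 2 and macro-metastatic replicate 2, the last with 2 mitochondrial calls. Endothelial cells had 1 nuclear member above B cells (4.57%), T cells 1 mitochondrial gene below (1.5%), and basophils and mast cells 2 nuclear and 1 mitochondrial below (5.77%). The endothelial call was lost without either control replicate, and the T cell call without any library other than macro-metastatic replicate 2. In basophils and mast cells the nuclear calls became 1, 0, 0 and 0, and the mitochondrial call 0, 1, 0 and 2, without control replicate 1, control replicate 2, macro-metastatic replicate 1 and macro-metastatic replicate 2. NK cells, cDC and pDC had none, at 1.81%, 1.05% and 0.754% above and 1.14%, 0.839% and 2.62% below over all genes. In these 3 types no member differed at an adjusted p under 0.05 by edgeR's quasi-likelihood test, which does not show that they changed alike. In simulated data for endothelial against B cells, this test recovered 13 of 100 changes of 1 on the log2 scale. It recovered 64 of 100 changes of 2. The simulation used a set spread, and these 3 types were not simulated.

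Other pathway genes came from lists of subunits outside the symbol patterns, assembly factors, mitochondrial DNA upkeep, regulators, the tricarboxylic acid cycle and carriers. They did not rise as a body, although some carriers rose in several types, as given below. In Kupffer cells 2 of 15 complex I assembly factors rose and 4 fell, and 3 of 30 assembly factors of complexes II to V rose and 7 fell, beside 20.5% higher and 18.6% lower over all genes. Uqcc2, which assembles complex III, had a log2 fold change of 2.64, and Sdhaf4 and Coa3, which assemble complexes II and IV, had −0.84 and −0.73. None of 14 genes of mitochondrial DNA upkeep and transcription rose and 4 fell, among them Tfam, which packages mitochondrial DNA and starts its transcription (−0.59, SE 0.14, adjusted p = 0.0135), and Mterf3 (−0.91). In B and NK cells Tfam was called higher, by 0.81 and 1.00 on the log2 scale, and no gene of that list was called lower. Of 8 regulators 3 rose in Kupffer cells, namely Esrra (0.86), Hif1a (0.46) and Ppargc1b (0.51), and of 14 genes of the tricarboxylic acid cycle 5 rose there, led by Dlst (1.18) and Idh2 (1.03).

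In endothelial cells no complex I assembly factor rose and 2 of 15 fell, and 1 of 30 assembly factors of the other complexes rose (Uqcc2, 3.85) and 5 fell, beside 17% higher and 10.3% lower over all genes. None of 15 genes of mitochondrial DNA upkeep rose and 3 fell, among them Tefm, the elongation factor of mitochondrial transcription (−1.23), and Mterf3 (−0.77). Myc, a driver of growth genes, rose by 5.55 and Pprc1 by 1.04. In T cells 0 of 15 complex I assembly factors rose and 3 fell, 0 of 15 genes of mitochondrial DNA upkeep rose and 2 fell, beside 15.8% higher and 11.9% lower over all genes, and Hif1a rose by 1.20. Slc25a3, which brings phosphate into mitochondria, rose in these 3 types, by 0.40 in Kupffer, 0.73 in endothelial and 0.62 in T cells. It also rose in B cells (0.54) and NK cells (0.73). Slc25a4, of the same list of carriers, rose in T cells (1.01) and NK cells (1.00) and fell in basophils and mast cells (−3.35).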

How the data were processed

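Single-cell RNA-seq of mouse liver on the BD Rhapsody whole transcriptome system was analysed in 6 libraries, 2 for each of 3 groups. The authors deposited UMI counts for every gene in every cell. The submitters' processing notes name CASAVA 1.8, UMI-tools and the mm10 build, with aligner, annotation and strand use not given in the sources used here. Per the labels' protocols, livers were digested with collagenase II, red cells were lysed and dead cells were removed on magnetic columns.

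Cells with under 300 genes, 25% or more mitochondrial UMIs or a doublet score over 0.296 (1.97% of cells) were left out. Clustering used scanpy 1.11.5 on 2000 variable genes, 30 components and 15 neighbours at resolution 1, without members or other mitochondrial genes. Of 35 clusters, those with markers of a type were named, 4005 cells stayed unnamed and 684 lay in mixed clusters. Counts were summed per library and type (at least 30 cells in each library) and fitted over all 6 libraries (3 residual degrees of freedom) with edgeR 4.0.16 (R 4.3.3), TMM scaling, its filter on low counts, the quasi-likelihood test and Benjamini-Hochberg adjustment over all genes. A gene was called at an adjusted p under 0.05. Differences from B cells were tested as an interaction, with the library as a block. DESeq2 1.42.0 was an alternative, and the fits of endothelial cells, T cells, basophils and mast cells, and endothelial against B cells were tested on simulated data.

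Members and gene lists were chosen with earlier results of these data known. The genes named in full follow a rule. For each type in the macro-metastatic comparison, it takes the 3 nuclear and 2 mitochondrial members with the smallest adjusted p in each direction among those with a mean of at least 50 CPM, then fewer in the pre-metastatic comparison, and the 8 nuclear members called in most types. Others are named by their role. GC content, length and shared stretches of 31 bases come from GENCODE vM21 (GRCm38). The mean chi-square per gene between replicates was 47.2, 101 and 157, so no library was a copy of another. Replicate numbers were not taken to pair libraries. Deviations of same-numbered libraries correlated at −0.25 to 0.23 over 12 values from endothelial, T, B and Kupffer cells, which cannot exclude a shared batch. Values of 1 member are counted in the totals and not reported here by name.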

Additional observations from a re-analysis of the deposited data

Results flagged for a closer look

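In each of the 20 cases below, the change of a member between macro-metastatic and control livers in a cell type differed from that in B cells of the same libraries at an adjusted p under 0.05 (edgeR quasi-likelihood test of the difference, Benjamini-Hochberg adjustment). In Kupffer cells the difference on the log2 scale was 1.417 for Sdhb (changes of 1.75 and 0.38), 1.055 for Sdhc (1.33 and 0.30) and 0.562 for Atp5b (0.66 and 0.13). It was −0.634 for Ndufb11, the only nuclear member that fell more in Kupffer cells. Among mitochondrial genes it was −0.498 for mt-Nd3, −0.544 for mt-Nd4l, −0.47 for mt-Nd5 and −0.437 for mt-Cytb. The mt-Nd5 value comes from changes of −0.14 in Kupffer and 0.35 in B cells, neither of which passed alone. None of the 4 mitochondrial differences in Kupffer cells was called without control replicate 1, without control replicate 2, under 10% mitochondrial UMIs or with no limit on them. In T cells mt-Nd5 differed by −0.385 (−0.07 and 0.35).

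In neutrophils the difference was 3.824 for Ndufc1 (SE 1.06), 1.828 for Cox6c, 1.682 for Cox5b, 1.527 for Cox6a1, 1.517 for Atp5g3, 1.331 for Atp5j and 1.191 for Cox6b1, all beside a median of 0.61 over all genes in that fit. For mt-Nd4l it was −1.099 (−1.62 and −0.05). None of these neutrophil differences was called without control replicate 1 or without control replicate 2. In basophils and mast cells it was −2.288 for Ndufb5 (SE 0.64) and −1.336 for mt-Nd5, and the median over all genes was −0.20. In endothelial cells Atp5pb differed by 0.843 (0.42 and −0.33), beside a median of 0.12. Neutrophil markers and depth moved with the groups in these types, and their part in these differences was not tested.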

How the results depend on the processing

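Values stand beside the reported value in parentheses, counts are of called members, and the cause of each move was not tested. Of 22 to 95 results per setting, none moved without shared barcodes, 1 each with DESeq2 size factors or library sizes without mitochondrial genes (endothelial mitochondrial falls 1 (2) in both), and 27 with GC and length offsets. Over the named genes, 653 of 745 alternative values kept their side of the threshold, 92 lost the call and 0 reversed. The hepatocyte share reversed with the limit on mitochondrial UMIs. Depth limits monocytes and macrophages, whose control replicate 1 held 24 cells, and neutrophils.

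With GC and length offsets, nuclear rises against control were B 7 (14), NK 1 (15), T 12 (24), cDC 13 (24), endothelial 11 (21), neutrophil 2 (5) and pDC 5 (12). Nuclear falls were B 10 (1), Kupffer 12 (4), NK 4 (0), T 10 (2), basophil and mast 11 (3), cDC 2 (0), endothelial 12 (3) and pDC 2 (0), and mitochondrial falls Kupffer 4 (9), NK 5 (0), T 7 (4) and pDC 1 (0). Rises against pre-metastatic livers were B 5 (16), NK 3 (18), T 16 (27), cDC 15 (27), endothelial 13 (20), monocyte 8 (28), neutrophil 2 (8) and pDC 10 (18). With the DESeq2 test, rises against control were B 6 (14), NK 6 (15) and pDC 4 (12), nuclear falls T 1 (2) and basophil 1 (3), mitochondrial falls basophil 2 (4), and Kupffer mitochondrial calls in pre-metastatic livers 4 (0). Rises against pre-metastatic livers were then B 6 (16), NK 5 (18), basophil 1 (3) and pDC 9 (18).

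With the replicate block, T mitochondrial falls were 2 (4), basophil 1 (4) and endothelial 1 (2), neutrophil rises 9 (5), and rises against pre-metastatic livers basophil 1 (3) and neutrophil 18 (8). Whether the numbers mark pairs or batches is not known. With no filter on low counts, nuclear falls were B 2 (1), Kupffer 2 (4), NK 1 (0) and basophil 5 (3), mitochondrial falls T 9 (4), basophil 2 (4) and pDC 1 (0), and neutrophil rises 9 (5), or 14 (8) against pre-metastatic livers. Pre-metastatic calls were then 1 (0) nuclear in hepatocytes and 4 (0) mitochondrial in neutrophils. With clusters alone, T mitochondrial falls were 2 (4), and differences from B cells T mitochondrial 0 (1), cDC nuclear 1 (0) and endothelial nuclear 0 (1).

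With the marker gate alone, nuclear falls were Kupffer 0 (4), NK 1 (0) and basophil 0 (3), mitochondrial falls basophil 0 (4), endothelial 1 (2) and neutrophil 5 (8), neutrophil rises 16 (5), and rises against pre-metastatic livers basophil 0 (3) and neutrophil 22 (8). The log2 ratio of mitochondrial shares was then basophil −0.42 (−1.30), monocyte −0.22 (−0.37) and neutrophil −0.70 (−1.28), and of nuclear shares Kupffer 0.12 (−0.09), basophil 0.23 (−0.77), monocyte 0.20 (0.33) and neutrophil 1.03 (0.42). As means over cells, mitochondrial ratios were hepatocyte −0.23 (−1.16) and monocyte −0.25 (−0.37).

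With no mitochondrial limit, NK nuclear falls were 1 (0), mitochondrial falls T 8 (4), cDC 2 (0) and endothelial 6 (2), and differences from B cells Kupffer mitochondrial 0 (4), T mitochondrial 2 (1), endothelial nuclear 0 (1) and neutrophil mitochondrial 7 (1). Mitochondrial ratios were B −0.32 (−0.15), T −0.54 (−0.33), cDC −0.46 (−0.26), endothelial −0.67 (−0.49), hepatocyte 0.85 (−1.16) and neutrophil −2.15 (−1.28). Under 10%, nuclear falls were Kupffer 2 (4) and endothelial 1 (3), and mitochondrial falls Kupffer 1 (9), T 1 (4), basophil 1 (4) and endothelial 1 (2). Differences from B cells were Kupffer nuclear 2 (4) and mitochondrial 0 (4), T nuclear 1 (0) and mitochondrial 0 (1), endothelial nuclear 0 (1), and neutrophil nuclear 1 (7) and mitochondrial 3 (1). Mitochondrial ratios were Kupffer −0.42 (−0.71), NK −0.12 (−0.21), endothelial −0.21 (−0.49), hepatocyte 1.19 (−1.16) and monocyte −0.16 (−0.37).

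Leaving out each library in turn keeps a lone library in its group, assumed to vary like the others. Against control, nuclear rises ranged over B 7 to 13, NK 6 to 13, T 11 to 23, basophil 0 to 1, cDC 11 to 20, endothelial 6 to 25, neutrophil 0 to 5 and pDC 1 to 9. Nuclear falls ranged over B 1 to 4, Kupffer 0 to 2, T 1 to 5, basophil 0 to 10 and endothelial 0 to 5, and mitochondrial falls over B 0 to 1, Kupffer 2 to 8, T 1 to 4, basophil 0 to 5, endothelial 0 to 4, neutrophil 0 to 10 and pDC 0 to 2. Against pre-metastatic livers, nuclear rises ranged over B 5 to 17, NK 5 to 16, T 12 to 29, basophil 0 to 3, cDC 11 to 35, endothelial 6 to 27, monocyte 3 to 21, neutrophil 1 to 8 and pDC 2 to 15. Pre-metastatic hepatocytes had 0 to 1 nuclear calls. Differences from B cells ranged over Kupffer mitochondrial 0 to 8 and nuclear 1 to 6, NK nuclear 0 to 1, T mitochondrial 0 to 1 and nuclear 0 to 1, basophil mitochondrial 0 to 2 and nuclear 0 to 2, cDC nuclear 0 to 3, endothelial mitochondrial 0 to 2 and nuclear 0 to 1, neutrophil mitochondrial 0 to 2 and nuclear 0 to 20, and pDC mitochondrial 0 to 7.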

Other observations

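An unnamed cluster led by the collagen genes Col1a1, Col1a2 and Col3a1 held a mitochondrial share of 11% and 9.83% in control libraries, with pre-metastatic values of 6.58% and 8.12% and macro-metastatic values of 4.58% and 4.96%. Its cells numbered 7 and 27, 2 and 25, and 59 and 551, so the control and pre-metastatic values rest on few cells. The nuclear share was 1.65% and 1.22%, 1.01% and 1.16%, and 1.31% and 1.71%. In the neutrophil cluster led by Camp, Ltf and Ngp, which encode granule proteins of immature neutrophils, the mitochondrial share had pre-metastatic values of 2.88% and 1.44% and macro-metastatic values of 3.13% and 2.07%, with overlap between these groups and only 2 cells in each control library.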
